A study of Mus musculus with 2 samples.

Results

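The Ikaros family of transcription factors was examined in naive CD8+ T cells with and without the transcription factor Bcl11b. Its members are Ikzf1 (Ikaros), Ikzf2 (Helios), Ikzf3 (Aiolos), Ikzf4 (Eos) and Ikzf5 (Pegasus). Every gene probe that carried a member's name on the array was taken, older names (Zfpn1a1 to Zfpn1a5) included, which gave 11 of 41174 gene probes. Ikzf1 had 1 probe, Ikzf2 had 2, Ikzf3 had 4, Ikzf4 had 3 and Ikzf5 had 1, each with a single spot. A further 3 probes carried A730095J18Rik, which the RefSeq gene table lists as an older symbol of Ikzf2, and they are reported beside the named Helios probes and called further probes.

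The Ikaros proteins bind DNA through zinc fingers near the amino terminus and pair with themselves and with each other through zinc fingers near the carboxyl terminus. They recruit chromatin remodelling and histone deacetylase complexes, and repress or activate genes of the lymphoid lineages. Ikaros is needed for lymphocyte development. Helios is found in T cells and marks many regulatory T cells, Aiolos acts in B cells and in maturing lymphocytes, Eos works with Foxp3 in regulatory T cells, and Pegasus is the most divergent member.

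The cells were CD8+ T cells, low in CD44 and CD25, sorted from naive C57BL/6 mice to a purity of more than 90% per the labels. The knockout mice were Bcl11bF/F/dLck-iCre, in which iCre under control of the distal promoter of Lck excises the floxed Bcl11b alleles once T cells mature, and the others are labelled only as wild type. RNA from a knockout sample (Cy5) and a wild-type sample (Cy3) was hybridised together on each of 2 arrays. They are labelled as biological replicates and form 1 group of ratios (n = 2), and the labels give no age, sex or number of mice. The dyes ran the same way round on both arrays, so a dye effect cannot be told apart from an effect of the genotype.

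The arrays differed from each other. On array 1 the knockout channel alone was well above background at 16.4% of gene probes and the wild-type channel alone at 1.39%. On array 2 the shares were 0.561% in the knockout alone and 6.37% in wild type alone. "Well above background" is the call of the scanner software. A probe was kept for testing where the same channel had that call on both arrays, which held for 11845 probes. Their log2 ratios of knockout over wild type had a standard deviation of 1.01 on array 1 and 0.399 on array 2, with a Pearson r of 0.27 between the arrays across probes, which are not independent replicates. The Y-linked genes Ddx3y and Eif2s3y had signal above background in just the knockout channel of array 1 and just the wild-type channel of array 2. The X-inactivation RNA Xist was above background in just the knockout channel of array 2, at a log2 ratio of up to 6.90. On array 1 Xist was above background in neither channel, at log2 ratios from -0.15 to 0.24. The Y-linked genes thus differed in opposite ways on the arrays, while Xist differed on array 2 only. A difference in sex and one in genotype cannot be told apart within an array. Bcl11b itself had log2 ratios of -1.45 and -1.73 at its brighter probe (adjusted p = 0.162, limma) and of -0.35 and -2.32 at the other (adjusted p = 0.321, limma). It was lower in the knockout at both probes on both arrays without passing the test, and no annotation was used here to place these probes against the floxed part of the gene.

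None of the 3 kept probes carrying a member's name passed the test, and 1 had an unadjusted p under 0.05 (limma). Over all kept probes, 29 of 11845 passed, or 0.245% (limma, Benjamini-Hochberg adjusted p under 0.05), and 1207 had an unadjusted p under 0.05. The kept member probes were those of Ikzf1 and Ikzf5 and 1 of the 4 for Ikzf3. Of all 11 member probes, 7 had a positive log2 ratio on both arrays, 2 a negative one on both and 2 opposite signs, where all measured probes had 34.9%, 34.0% and 31.1%. The median log2 ratio of the 11 probes was 0.41 on array 1 and 0.16 on array 2, beside 0.005 and 0.003 over all measured probes. On array 1, 4 of the 11 were past 2-fold and all 4 were higher in the knockout, where 12.2% of all measured probes were past 2-fold. On array 2 none of the 11 was, where 1.16% were. Ratios past 2-fold at the probes carrying a member's name were thus confined to array 1, the array with the wider spread. In bulk RNA of sorted cells, a difference in the number of cells that express a gene and a difference in RNA per cell cannot be told apart.

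**Figure D1:**
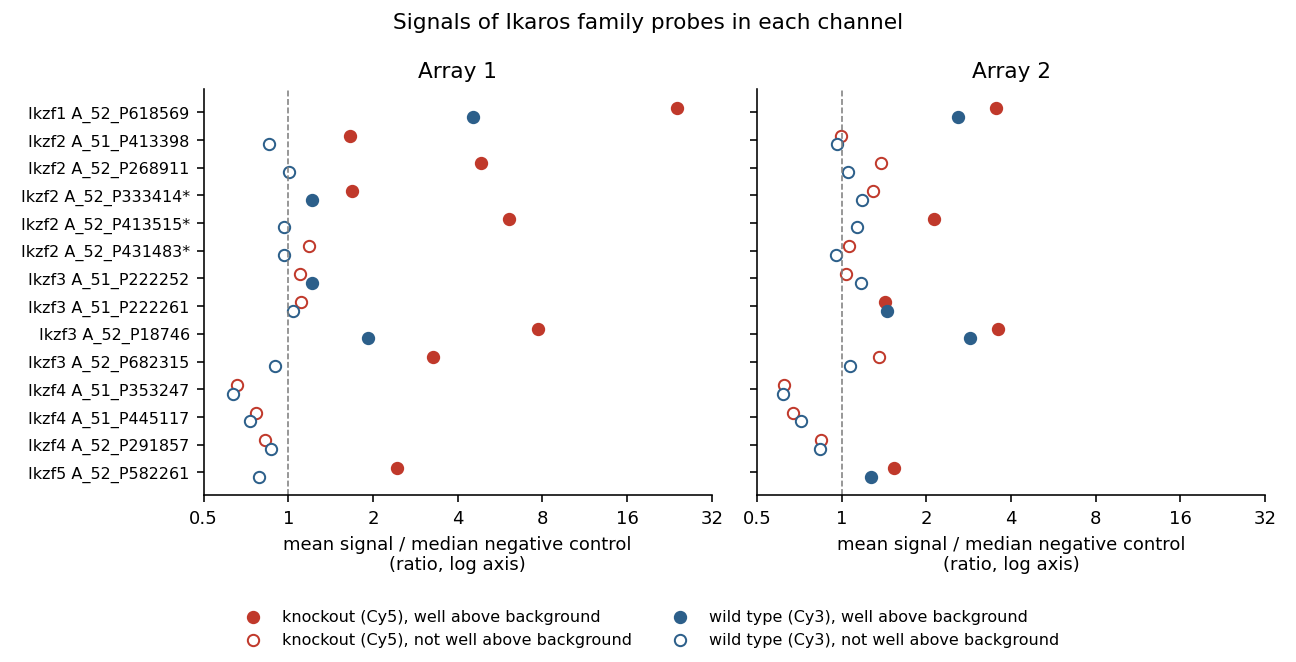
Mean signal of each Ikaros family probe as a multiple of the median negative control spot (dashed line at 1) on a log axis, for knockout (red) and wild type (blue), on array 1 (left) and array 2 (right). Filled points were well above background and open points were not; an asterisk marks the further Ikzf2 probes. All 3 Ikzf4 probes lie below the line in both genotypes on both arrays, and Ikzf1 was brightest on array 1 in the knockout at 24.1.

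Ikaros, the founding member, was called well above background in all 4 measurements. The Ikzf1 probe (A_52_P618569, mm8 chr11:11658319-11661278, plus strand) gave mean signals of 23782 and 6592 intensity units in the knockout on arrays 1 and 2, against 4928 and 2912 in wild type. Signals in Cy5 exceeded those in Cy3 for most kept probes, whose median log2 ratio was 1.36 before normalisation. After loess normalisation, which removes the intensity-dependent dye difference within each array, Ikzf1 had log2 ratios of 0.46 and 0.19. Both ratios were above 0 and small beside the spread of array 1. The mean was 0.32 ± 0.19 (SD, n = 2), with a 95% interval of -0.56 to 1.21, and it did not pass (adjusted p = 0.834, limma). The interval includes no difference and also a 2-fold higher level in the knockout. The coordinates of this probe span 2960 bases, more than the length of an array probe.

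Helios had the highest mean ratio of the family, at a further probe, and its probes disagreed. Of the 2 probes that carry its name, A_52_P268911 (mm8 chr1:69615427-69615486, minus strand) gave 4784 and 2578 intensity units in the knockout, against 1096 and 1177 in wild type. Its log2 ratios were 1.75 and 0.67, a mean of 1.21 ± 0.76 (SD, n = 2). The knockout signal was well above background on array 1 only and the wild-type signal on neither array, so the probe was not kept and has no test. Because wild type is only bounded, the difference is given as at least 2.12-fold higher in the knockout. The knockout mean in this bound includes the array 2 signal, which was not called above background, so it is not a strict lower limit. Such a bound sets the mean of the brighter channel over both arrays against, per array, the higher of the dim probe's own value and the lowest signal well above background, and it is open to dye bias.

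The other named Helios probe, A_51_P413398 (mm8 chr1:69471966-69472025, minus strand), gave 1626 and 1857 intensity units in the knockout, against 930 and 1074 in wild type. Its log2 ratios were 1.58 and 0.16, a mean of 0.87 ± 1.00 (SD, n = 2). Here again the knockout signal was well above background on array 1 only and wild type on neither array. The bound was at least 1.05-fold, with the same limit. The 2 named probes had positive log2 ratios on both arrays, and were past 2-fold on array 1 only.

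Among the further Helios probes, A_52_P413515 (mm8 chr1:69464487-69464546, minus strand) gave 5988 and 3955 intensity units in the knockout, against 1051 and 1269 in wild type. It was the only Ikaros family probe with both knockout signals, and neither wild-type signal, well above background. It was thus kept through the knockout channel alone. On array 2 it was among 231 of 41174 gene probes that were well above background in the knockout alone. Its log2 ratios were 2.17 and 1.25, a mean of 1.71 ± 0.65 (SD, n = 2) with a 95% interval of 0.80 to 2.62, and the bound was at least 3.23-fold. The interval is not adjusted for the number of probes tested, and its variance is drawn towards that of all probes. The probe did not pass the test over all kept probes (adjusted p = 0.146, limma). With the brightest probe alone standing for each gene it passed at an adjusted p of 0.042 (limma), in a fit that called 138 of 9281 genes, or 1.49%. With a prior that follows intensity and is fitted robustly it passed at 0.017 (limma), in a fit that called 356 of 11845 probes. A_52_P413515, 1 of the 5 Helios probes, thus lay on either side of the threshold according to the fit. Its ratio was the same in each of these fits. The probes that carry the Helios name were not kept and have no such test.

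The other 2 further probes were not past 2-fold on either array, and neither was well above background in any channel on array 2. A_52_P333414 (mm8 chr1:69466266-69466325, minus strand) gave 1654 and 2404 intensity units in the knockout, against 1314 and 1319 in wild type. Both genotypes passed the background call on array 1, where its log2 ratio was -0.003, and neither did on array 2, where it was 0.18. A_52_P431483 (mm8 chr1:69469135-69469194, minus strand) gave 1166 and 1981 intensity units in the knockout, against 1051 and 1066 in wild type, and was not well above background in any channel. Its log2 ratios of 0.37 and 0.36 agreed between the arrays but came from signals close to those of the negative controls, which had medians of 985 and 1865 in the knockout channel and 1087 and 1120 in the wild-type channel. The log2 ratios of the 5 Helios probes thus ranged from -0.003 to 2.17 on array 1 and from 0.16 to 1.25 on array 2. They were positive on both arrays at 4 of the 5 probes, as at 34.9% of all measured probes. Of these 4, A_52_P413515 alone passed the background call in both knockout samples. The 2 named probes passed it in the knockout of array 1 only. A_52_P431483 passed it in no channel, so its ratios are not read as a difference. By the coordinates of the array design, the probe with the highest ratio is the one nearest to the 3′ end of the gene on the minus strand, and the probe next to it is the one without a difference on array 1. A probe for a thymus cDNA clone described as Helios, A_52_P883898, carries neither name and lies on the plus strand at mm8 chr1:69479876-69479935. It was not called above background in any channel, at 1038 and 1809 intensity units in the knockout, against 1014 and 1024 in wild type. No mm8 gene models were used here, so the probes were not assigned to exons or untranslated regions.

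**Figure D2:**
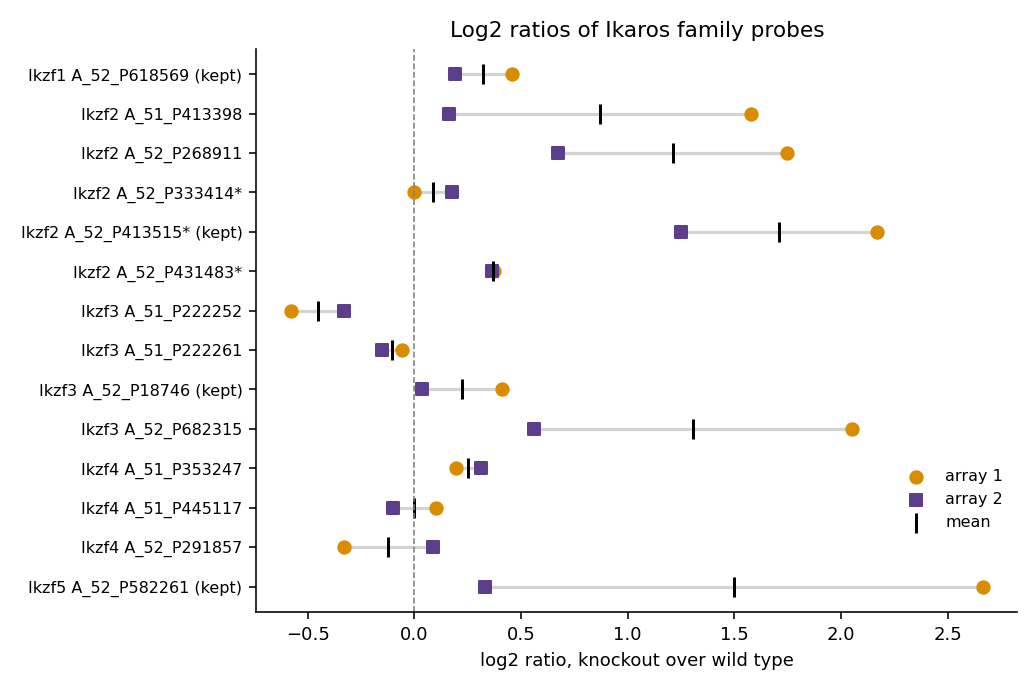
Log2 ratio of knockout over wild type for each Ikaros family probe on array 1 (circle) and array 2 (square), with the mean as a bar; kept probes are named as such and an asterisk marks the further Ikzf2 probes. The gap between the arrays is widest for Ikzf5, at 2.66 and 0.33, and narrowest for the further Ikzf2 probe at 0.37 and 0.36.

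Aiolos had 4 probes, all on the minus strand of chromosome 11. The probe kept for the test, A_52_P18746 (mm8 chr11:98300382-98300441), gave 7604 and 6689 intensity units in the knockout, against 2086 and 3201 in wild type. All 4 measurements were well above background. Its log2 ratios were 0.41 and 0.04, a mean of 0.22 ± 0.26 (SD, n = 2) with a 95% interval of -0.66 to 1.11, and it did not pass (adjusted p = 0.887, limma). Aiolos RNA was thus detected in both genotypes, and at this probe the mean was smaller than the spread between the arrays.

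Of the other Aiolos probes, A_51_P222261 (mm8 chr11:98283204-98283263) gave 1089 and 2666 intensity units in the knockout, against 1132 and 1624 in wild type. Both genotypes passed the background call on array 2 alone, and its log2 ratios were -0.06 and -0.15. The neighbouring A_51_P222252 (mm8 chr11:98283495-98283554) gave 1086 and 1935 intensity units in the knockout, against 1322 and 1310 in wild type. The wild-type signal of array 1 was the only one called above background, with log2 ratios of -0.58 and -0.33. The bound was at least 1.14-fold lower in the knockout, and its wild-type mean includes the array 2 signal, which was not called above background. These 2 probes lay slightly below 0 on both arrays.

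The last Aiolos probe went the other way. A_52_P682315 (mm8 chr11:98329877-98329935) gave 3212 and 2521 intensity units in the knockout, against 976 and 1201 in wild type. Its log2 ratios were 2.05 and 0.56, a mean of 1.31 ± 1.05 (SD, n = 2). The bound was at least 1.95-fold, and its knockout mean includes the array 2 signal, since the knockout was well above background on array 1 only. The array design describes its target as a bone cDNA clone that could not be classified, so what it measures of Aiolos is less certain than at the other probes. Across the 4 Aiolos probes the log2 ratio ranged from -0.58 to 2.05 on array 1 and from -0.33 to 0.56 on array 2, and no direction was common to them.

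Eos was not detectable at the signal of these arrays. None of its 3 probes was well above background in either genotype on either array. They lie on the minus strand of chromosome 10, at mm8 chr10:128036473-128036532 (A_51_P353247), chr10:128036782-128036841 (A_51_P445117) and chr10:128037711-128038748 (A_52_P291857). Their signals were between 0.62 and 0.85 times the median negative control in the knockout, and between 0.62 and 0.87 times in wild type. Their log2 ratios, 0.19 and 0.31, 0.10 and -0.10, and -0.33 and 0.09 on arrays 1 and 2, are not read as a difference, since neither genotype was measured above background.

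Pegasus, which recognises a different DNA motif from the other members, had the highest single ratio, on array 1. Its probe A_52_P582261 (mm8 chr7:131180404-131180463, minus strand) gave 2404 and 2850 intensity units in the knockout, against 855 and 1421 in wild type. The wild-type signal was well above background on array 2 only, while the knockout signal was on both arrays. The probe was thus kept through the knockout channel alone. The log2 ratios were 2.66 and 0.33, a mean of 1.50 ± 1.65 (SD, n = 2) with a 95% interval of 0.46 to 2.54. It did not pass (adjusted p = 0.289, limma). Array 1 decides this value: without it the log2 ratio is 0.33, and on array 1 the wild-type signal was not above background. The interval is narrower than the gap between the arrays because limma draws the variance of each probe towards that of all probes. Like the other intervals, it is not adjusted for the number of probes tested.

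**Figure D3:**
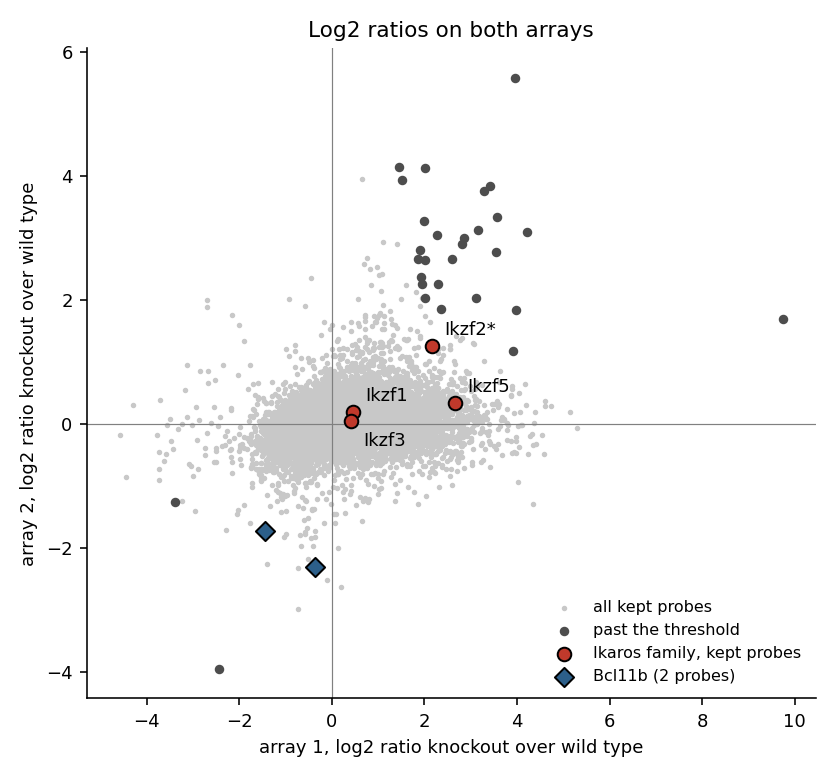
Log2 ratio of knockout over wild type on array 1 (horizontal) and array 2 (vertical) for all 11845 kept probes (grey), those past the threshold (dark), the kept Ikaros family probes (red; the asterisk marks a further Ikzf2 probe) and both Bcl11b probes (blue diamonds). The Ikzf1 and Ikzf3 probes lie near the centre, Ikzf5 far to the right and close to 0 on array 2, and the Ikzf2 probe at 2.17 and 1.25 next to the points past the threshold.

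Genes with a like pattern were sought over the 2 arrays as those with the nearest pair of log2 ratios at similar intensity. For Ikzf1 they were Rrbp1, Meaf6 and Slc25a39, with 44 of 2532 kept probes within a distance of 0.1. For the kept Ikzf3 probe they were Trappc4, Lamp1 and Pop1, with 61 of 3537 that near. For Ikzf5 they were Mtf2, at 2.68 and 0.37, Tox, at 2.75 and 0.30, and Lrp12, at 2.72 and 0.25, and only these 3 of 4433 were within that distance. The number of near probes follows from how far a ratio lies from 0, and the ratio of Ikzf5 on array 1 is against a wild-type signal that was not above background.

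Ikaros proteins act with corepressor and remodelling complexes. Of 21 genes for such partners, 17 were kept and none passed in either direction (1 at an unadjusted p under 0.05, limma). Their median log2 ratio was 0.37, beside 0.06 over all kept probes, and it was 0.56 on array 1 and -0.03 on array 2. Chd4, the Mi-2 beta helicase of the NuRD complex, had log2 ratios of -0.45 and -0.14, and Mta3, another NuRD subunit, -0.29 and -0.59. The histone deacetylase Hdac1 was at 0.54 and 0.19 and the histone-binding protein Rbbp4 at 1.18 and 0.13. Of the 17, 4 were positive on both arrays and 2 negative on both, where 31.7% and 29.3% of all kept probes were.

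Of 13 genes for proteins that modify or degrade Ikaros proteins, all 13 were kept and none passed (2 at an unadjusted p under 0.05, limma), with a median of 0.39. Csnk2b, the regulatory subunit of casein kinase 2, which phosphorylates Ikaros, was at 2.28 and 0.75 (adjusted p = 0.239, limma). Ddb1 and Rbx1, subunits of the cullin-4 ubiquitin ligase that degrades Ikaros and Aiolos in human cells treated with thalidomide analogues, were at 1.21 and 0.15 and at 0.63 and 0.31. As for the partners, the higher values lay on array 1, whose median over this list was 0.78 against 0.08 on array 2.

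Of 30 lymphocyte genes that have been linked to Ikaros factors, 18 were kept and none passed (3 at an unadjusted p under 0.05, limma), with a median of 0.44. Bcl6, a repressor expressed in memory precursor and follicular helper T cells, was at 2.35 and 1.05 (adjusted p = 0.158, limma). The T-box factors Eomes and Tbx21 were at 0.63 and 0.74 and at 1.31 and 0.53, and Cdk6, a cell cycle kinase, at 0.54 and 0.42. Cd8a, which encodes the alpha chain of the CD8 coreceptor, was at 0.79 and -0.28. Of the 18 kept genes, 9 were positive on both arrays, Bcl6, Eomes, Tbx21 and Cdk6 among them, and 3 were negative on both, beside the same shares of 31.7% and 29.3% over all kept probes.

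**Figure D4:**
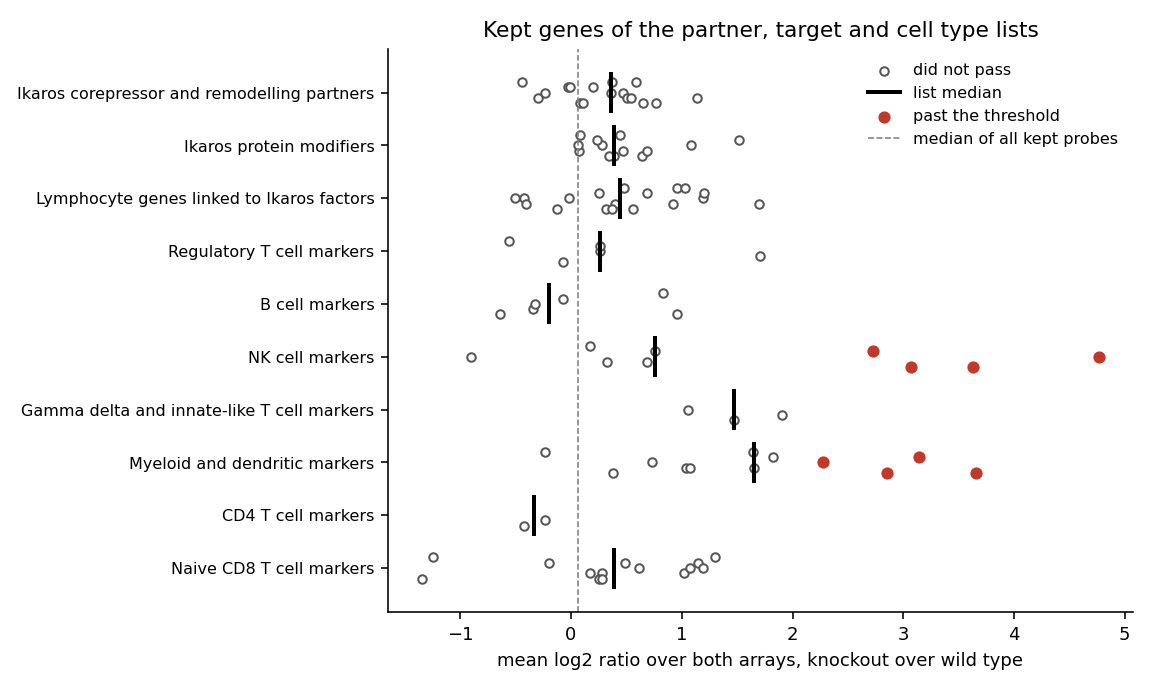
Mean log2 ratio over both arrays (knockout over wild type) of the kept genes in each list (points), with the list median (bar) and the median of all kept probes (dashed line at 0.06). Red points passed the test and open points did not. All red points lie in the NK cell list (4 of 9 kept) and the myeloid and dendritic list (4 of 12 kept). All of them but Tyrobp were kept through the knockout channel alone.

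Markers of other cells that could hold Helios, Aiolos or Eos were read beside the family. Of the 15 regulatory T cell markers, which include Ikzf2 and Ikzf4, 13 were on the array and 5 were kept, and none passed (1 at an unadjusted p under 0.05, limma, which is Ikzf2). Foxp3, the defining factor of these cells, was not well above background in either genotype on either array, nor were Il2ra and Ctla4. The other 4 kept markers, Tnfrsf18, Tnfrsf4, Itgae and Capg, were above background in every channel and had opposite signs on the arrays, at -0.41 and 0.93, -1.23 and 0.11, 0.84 and -0.33, and -0.25 and 0.10. The summed signal of the matched regulatory T cell markers, in multiples of the negative control median before normalisation, was 52.5 and 40.8 in the knockout, against 19.7 and 23.8 in wild type. The brightest of them, Tnfrsf18, gave 16.9 and 24.4 of this in the knockout, against 5.61 and 8.80 in wild type. The part of regulatory T cells in the Helios values was not tested.

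Of 13 B cell markers, 6 were kept and none passed or had an unadjusted p under 0.05 (limma), with a median of -0.20. Cd79b, a chain of the B cell receptor, was at -0.51 and -0.14. The B cell coactivator Pou2af1 was at 1.78 and 0.13, and the surface proteins Ms4a1 and Cd22 were at 1.28 and 0.38 and at -0.71 and -0.56. The summed signal of the B cell markers was 196 and 108 in the knockout, against 54.2 and 65.4 in wild type, with the Cy5 signal of most probes brighter, as given above. Most of it came from Ighm, the heavy chain of IgM, at log2 ratios of -0.22 and 0.08, and without it the sums were 49.5 and 24.4 in the knockout, against 17.3 and 20.9 in wild type. Of the CD4 T cell markers, 2 of 3 were kept and none passed or had an unadjusted p under 0.05 (limma), with a median of -0.33 and summed signals of 3.68 and 3.95 in the knockout, against 3.45 and 3.42 in wild type.

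Some of the genes that did pass the test were NK and myeloid markers. Of 11 NK cell markers, 9 were kept and 4 were higher in the knockout at an adjusted p under 0.05 (limma), where 0.228% of all kept probes were. These were the receptor adaptors Fcer1g and Tyrobp and the receptors Cd244a and Klrb1c, at mean log2 ratios of 4.76, 2.73, 3.63 and 3.07. At an unadjusted p under 0.05 (limma), 4 NK markers were higher and 1 was lower, Prf1, which encodes perforin, at -0.55 and -1.25 (adjusted p = 0.489, limma). The granzyme gene Gzma was at 0.72 and 0.80, Klra8 at 0.02 and 0.33, and Ncr1 at -0.20 and 0.86. Of the 9 kept NK markers, 7 were positive on both arrays and 1 negative on both, where 31.7% and 29.3% of all kept probes were. Of 16 myeloid and dendritic markers, 12 were kept and 4 were higher, namely C1qc, Adgre1, Csf1r and Itgax, at 3.14, 3.65, 2.85 and 2.27, and 8 were higher at an unadjusted p under 0.05 (limma). Of the 12 kept, 8 were positive on both arrays and 1 negative on both, Cd14 at -0.40 and -0.08. S100a9, the brightest of the list, was at 2.86 and -0.71, Lyz2 at 4.03 and -0.38, and S100a8 at 0.91 and -0.15. Itgam, Cd68, Csf3r and Siglech were not kept. The wild-type signal was below that call on both arrays for Fcer1g and Cd244a, which were at least 20.6-fold and at least 6.45-fold higher in the knockout. The same held for C1qc, Adgre1 and Csf1r, which were at least 4.37-fold, at least 3.70-fold and at least 1.93-fold higher. The number of NK markers well above background was 10 and 10 in the knockout, against 4 and 5 in wild type. For the myeloid markers it was 12 and 11 in the knockout, against 2 and 6 in wild type. Over all 41174 gene probes it was 16327 and 10267 in the knockout, against 10140 and 12660 in wild type. The summed signals were 44.1 and 112 for NK markers in the knockout, against 12.1 and 21.8 in wild type, and 66.7 and 45.4 for myeloid markers in the knockout, against 15.0 and 31.2 in wild type. These sums precede normalisation, and Cy5 was brighter than Cy3 for most kept probes. For comparison, the naive CD8 T cell markers summed to 1251 and 625 in the knockout, against 202 and 321 in wild type. When loess was replaced by median centring of each array, 1 NK marker and no myeloid marker passed, and with the ratio of the scanner software none of either list did (limma). The list medians of both and the further Helios probe A_52_P413515 were higher in both knockout samples than in the wild-type samples beside them, and the part of other cells in the Helios values was not tested.

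Of the 10 markers of gamma delta and innate-like T cells, 7 were on the array and 3 were kept, and none passed (3 at an unadjusted p under 0.05, limma). Cd163l1 was at 2.54 and 1.27 and Cd160 at 1.59 and 1.34, and all 3 kept genes were higher in the knockout on both arrays, as were 31.7% of all kept probes. Wild type was not above background for Cd160, and its bound was at least 2.09-fold. The summed signal over the 7, before normalisation, was 138 and 108 in the knockout, against 11.2 and 30.5 in wild type, and Cd163l1 alone gave most of it. Without it the other 6 summed to 8.06 and 8.02 in the knockout, against 5.73 and 6.28 in wild type. All 14 naive CD8 T cell markers were kept and had signals well above background in every channel, and none passed (6 at an unadjusted p under 0.05, limma), with a median of 0.39. Cd8b1, the beta chain of CD8, was at 1.11 and 0.93, and Cd3e, a chain of the T cell receptor complex, at 0.88 and 0.35. The homing receptor Ccr7 was at -1.72 and -0.96 and Cd5, an inhibitor of T cell receptor signals, at -0.69 and -1.80. Their summed signal was 1251 and 625 in the knockout, against 202 and 321 in wild type. Cd44, one of the sort markers, was at 1.58 and 0.36 (adjusted p = 0.457, limma), and the other, Il2ra, was not well above background in any channel. The T cell and CD8 markers of the label were thus detected in both genotypes. Cd44, which the sort selected to be low, had signals of 4.79 and 7.59 times the negative control median in the knockout, against 1.04 and 4.54 times in wild type. Of these 4 signals, only that of wild type on array 1 was not called above background.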

How the data were processed

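Per the submitters' processing notes, Agilent Feature Extraction (version 9.5.3.1) read the scans. Per the labels' protocols, RNA was amplified linearly and labelled with a Kreatech ULS kit. The deposited scanner files give mean signals and local backgrounds per spot as linear intensity values. They hold log10 ratios, knockout (red) over wild type (green), which the software had background-subtracted and dye-normalised, per the file headers. The deposited value table matches these log10 ratios within 0.005 at every spot, with column medians of 0 and 0.

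From these intensities, log2 ratios were made in R 4.3.3 with limma 3.58.1: normexp background correction (offset 50), loess within arrays with control and flagged spots at weight 0, and spots of a probe averaged. Kept probes were tested by lmFit and eBayes (two-sided, Benjamini-Hochberg over 11845 probes) with a threshold of 0.05. With 2 arrays there is 1 residual degree of freedom per probe, and the prior added 18.4. The number of arrays limits the precision. Both arrays lay on the same slide, so no batch was tested. In the lists the brightest kept probe stands for a gene.

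Named are every probe of the family, Bcl11b, the 3 nearest genes for each member with a kept probe, and from each list the genes past the threshold, up to 4 others with the largest smaller absolute ratio among those of the same sign on both arrays, and Foxp3, Cd8a and Cd8b1; some genes that this rule names are not reported here. Il2ra, Ctla4, Tnfrsf18, Tnfrsf4, Itgae, Capg, Ighm, Ddx3y, Eif2s3y and Xist were named after their values were seen. So were Ncr1, Cd14, S100a8, S100a9, Lyz2, Itgam, Cd68, Csf3r and Siglech. The family and the lists were chosen with earlier results of these data known. Of 41174 gene probes, 24375 matched the RefSeq gene table (GRCm38.p6) by accession, 6301 by current symbol and 2426 by older symbol. Per the file headers, the array design gives mm8 coordinates.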

Additional observations from a re-analysis of the deposited data

How the results depend on the processing

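All 12 alternatives were planned. Kept in direction under every alternative that gave a value were Ikzf1, the kept Ikzf3 probe, Ikzf5, both named Ikzf2 probes, the 3 further Ikzf2 probes and Ikzf3 A_52_P682315. Without normalisation within arrays, Ikzf1 was at 1.86 (adjusted p = 0.00666, limma), Ikzf3 at 1.72 (adjusted p = 0.0103, limma), Ikzf5 at 2.15 (adjusted p = 0.00373, limma) and the further Ikzf2 probe A_52_P413515 at 2.95 (adjusted p = 0.000662, limma). All 3 kept member probes then passed, but so did 7061 of all kept probes (59.6%), whose median was 1.36, and the 2 Ikzf3 probes below 0 turned to 0.52 and 0.16. With an intensity trend and a robust prior, 1 member probe passed, Ikzf5 at 1.50 (adjusted p = 0.000797, limma), as did A_52_P413515 at 1.71 (adjusted p = 0.017, limma) and 356 of all probes. The Ikzf5 probe and A_52_P413515 were both kept through the knockout channel alone. With 1 probe per gene A_52_P413515 passed (1.71, adjusted p = 0.042, limma), among 138 genes, in a fit with the same standard error for every gene. Over its alternatives the ratio of this probe ranged from 1.05 to 5.23 and its adjusted p from 0.000662 to 0.716 (limma). No member probe passed under the other alternatives.

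The 29 calls over all probes became 17 without background correction, 160 with an offset of 0, 50 with both channels required above background, 1 with median centring, 1 with scaling between arrays, and 0 with the negative control median subtracted (283 at an unadjusted p under 0.05), with the scanner ratio (514), with the value table (514) or with no filter on dim probes (3651; all limma). The split of higher and lower calls was 27 and 2, against 136 and 24 with an offset of 0, 32 and 18 with both channels required, 115 and 23 with 1 probe per gene and 302 and 54 with the trend. NK markers past the threshold fell to 1 with median centring and 0 with the scanner ratio, and myeloid markers to 0 under both. Median centring put the median of all kept probes at 0.66. The cause of these differences was not tested.

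Leaving out each array gave 0.19 to 0.46 for Ikzf1, 0.04 to 0.41 for Ikzf3, 0.33 to 2.66 for Ikzf5 and 1.25 to 2.17 for A_52_P413515, as values with no test. No paired analysis was possible because no second group of ratios exists to pair with: the test reported is itself paired, on a knockout and a wild-type sample within each array. With 2 arrays of the same dye orientation and negative controls brighter than many probes, ratios of dim probes such as those of Ikzf4 carry little information.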
